A study of Mus musculus with 17 samples.

Results

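MHC class I molecules display peptides cut inside a cell to T cells, and 10 genes of this route were followed in lung lavage cells of A/J mice. They were the class I heavy chains H2-K1 and H2-D1, their light chain B2m, the loading genes Tap1, Tap2 and Tapbp, the immunoproteasome subunits Psmb8, Psmb9 and Psmb10, and the regulator Nlrc5. The members were all probe sets that the platform annotation gives to exactly 1 of these genes, 27 of the 45101 probe sets on the Affymetrix Mouse430_2 array, or 10 of 18193 genes with a probe set of their own. H2-D1 had 9 of them, H2-K1 and Tap1 had 4 each, B2m, Tapbp and Psmb8 had 2 each, and the other genes had 1 each. A further 3 probe sets named a member together with another gene and were not used.

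The arrays measured total RNA of bronchoalveolar lavage cells, cells rinsed out of the lung through the windpipe, for the most part alveolar macrophages when the lung is healthy. One group was urethane-treated A/J mice (11 arrays), urethane being a chemical carcinogen to which A/J, an inbred strain, responds with lung tumours, and the other was untreated A/J mice of matched age (6 arrays). The labels used here give neither the ages, the dose nor the time after treatment, and no genotype or other agent separates the groups. Arrays are called here by their label number, which for control 6_13 is a pair. Whether a number stands for 1 mouse is not stated, so the p-values cover the spread among the arrays, and some of that spread may be technical. In bulk RNA, fewer cells of a type and less RNA per cell cannot be told apart.

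The proteasome cuts cytosolic proteins into peptides, and interferon-gamma makes cells replace its constitutive catalytic subunits by Psmb8, Psmb9 and Psmb10, which favours peptides that fit class I grooves. The transporter formed by Tap1 and Tap2 carries peptides into the endoplasmic reticulum, where tapasin (Tapbp) bridges it to heavy chains that have paired with B2m. Nlrc5 is the transactivator of class I genes and works through promoter boxes that include a cyclic AMP response-like element and an inverted CCAAT box. Alveolar macrophages are the resident phagocytes of the air spaces.

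The promoters of the heavy chains, of B2m and of Tap1 are shown because letters of these boxes lie in them, the response element core followed by the inverted CCAAT box in H2-K1, H2-D1 and B2m. In Tap1 the CCAAT letters are not inverted and lie before the core. The sequences come from RefSeq, assembly GRCm38.p6, which is of C57BL/6J, and A/J mice carry another H2 haplotype, so their own letters may differ. Capitals mark the motif matches named after the sequences. H2-K1 is on the minus strand at chr17:34000351-34000466, H2-D1 on the plus strand at chr17:35262915-35263053, B2m on the plus strand at chr2:122147540-122147646 and Tap1 on the plus strand at chr17:34187326-34187482.
H2-K1: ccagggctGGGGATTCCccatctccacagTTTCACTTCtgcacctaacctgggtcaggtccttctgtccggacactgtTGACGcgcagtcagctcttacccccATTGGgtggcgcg
H2-D1: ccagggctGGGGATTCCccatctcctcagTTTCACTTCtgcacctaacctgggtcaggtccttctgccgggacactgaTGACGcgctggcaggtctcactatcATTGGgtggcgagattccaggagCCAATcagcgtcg
B2m: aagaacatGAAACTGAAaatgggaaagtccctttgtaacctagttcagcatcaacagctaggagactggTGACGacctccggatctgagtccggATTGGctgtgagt
Tap1: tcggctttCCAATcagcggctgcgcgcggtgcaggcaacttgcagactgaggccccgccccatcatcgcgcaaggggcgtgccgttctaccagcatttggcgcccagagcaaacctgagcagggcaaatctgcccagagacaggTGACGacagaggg

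Both strands of the 250 bases before each start were searched in 32851 RefSeq promoters, and 8 of the 10 genes had an entry, H2-K1 having 2. Tap2 and Nlrc5 had none. The heavy chain promoters hold GGGNNTTCC, a kappaB-like motif found in 4.98% of all promoters, and GAANNGAAA, a short interferon-response-like motif found in 6.31%. B2m holds GAAANNGAA, the interferon-response-like motif in another spacing, found in 7.13% of promoters; the 2 spacings can overlap, and in these promoters they do not. Psmb8 holds TTCNNNGAA, a motif like the gamma-activated site, found in 7.02%. TGACG, the core of the cyclic AMP response element, is in the promoters of B2m, H2-D1, H2-K1, Psmb9 and Tap1, against 17.8% of all promoters, and CCAAT is in those 5 genes and Tapbp, against 33.8%. Tap1 and Psmb9 are neighbours read in opposite directions, and their promoter windows of 300 bases share 275 bases, so their TGACG and CCAAT matches are the same letters. Psmb9, Tap1, Psmb8 and Tap2 are consecutive genes on chromosome 17, which holds 7 of the 10, whereas B2m is on chromosome 2 and Nlrc5 and Psmb10 are on chromosome 8. A match of letters is a description and does not show that a factor binds.

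All arrays had been scaled to the same trimmed mean. Their 20th percentile signals spanned 9.49 to 66.2 after urethane and 15.7 to 28.4 in controls. The highest were those of urethane 33 (66.2), urethane 36 (41.8) and urethane 35 (35). Scanning took place on 2 days, each with its own chip lot and range of label numbers, with 5 urethane and 2 control arrays on scan day 1 and 6 urethane and 4 control arrays on scan day 2. Control 36 was the highest control for 7 of the 10 genes, against 15.7% of all genes. Its 20th percentile signal, 17.1, lay within the range of the other controls. Results that rest on it are given with and without it. Where it is the highest control, leaving it out raises the difference, so p-values without it are descriptions. Among controls only control 33 ran on fluidics station 1, and among urethane arrays only urethane 9, 35 and 36 ran on station 2. One label field speaks of lung tissue, but the source named is lavage cells. All 15 measured alveolar macrophage markers exceeded the 40th percentile signal on all 17 arrays, and so did 11 of 14 airway epithelial markers, so these markers do not tell lavage from tissue. Genes were tested on log2(signal + 17.1) with limma and Benjamini-Hochberg adjustment over 13390 genes, the probe set of highest mean standing for each gene, and a threshold of 0.05. Of the 27 probe sets, 24 exceeded the 40th percentile on at least 6 arrays and were tested, and all 10 genes had at least 1.

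No class I presentation gene passed the test between lavage cells of urethane-treated and control mice. Of the 10 genes, 0 passed the threshold, and 0 had an unadjusted p below 0.05 in limma. Over all 13390 genes 3.14% passed (2% higher and 1.14% lower after urethane) and 14.7% had an unadjusted p below 0.05. Among the genes that passed, 268 were higher and 153 lower after urethane, and with arrays scaled to equal medians 166 were higher and 17 lower. The adjusted p of the members ran from 0.486 to 0.996, and their log2 differences, urethane minus control, from -0.06 for H2-D1 to 0.32 for Nlrc5. The 95% intervals of the 10 differences lay between 0.828-fold and 1.84-fold. Differences were above 0 for 9 of the 10, against 45.6% of all genes, and H2-D1 was the exception. H2-D1 was above 0 under quantile normalization (0.085) and equal median scaling (0.16). Under equal median scaling the median of all genes was 0.18, so H2-D1 lay below it. The median difference was 0.10 over the members and -0.03 over all genes. The 2 groups overlapped for every member, as they did for all but 0.471% of genes.

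**Figure D1:**
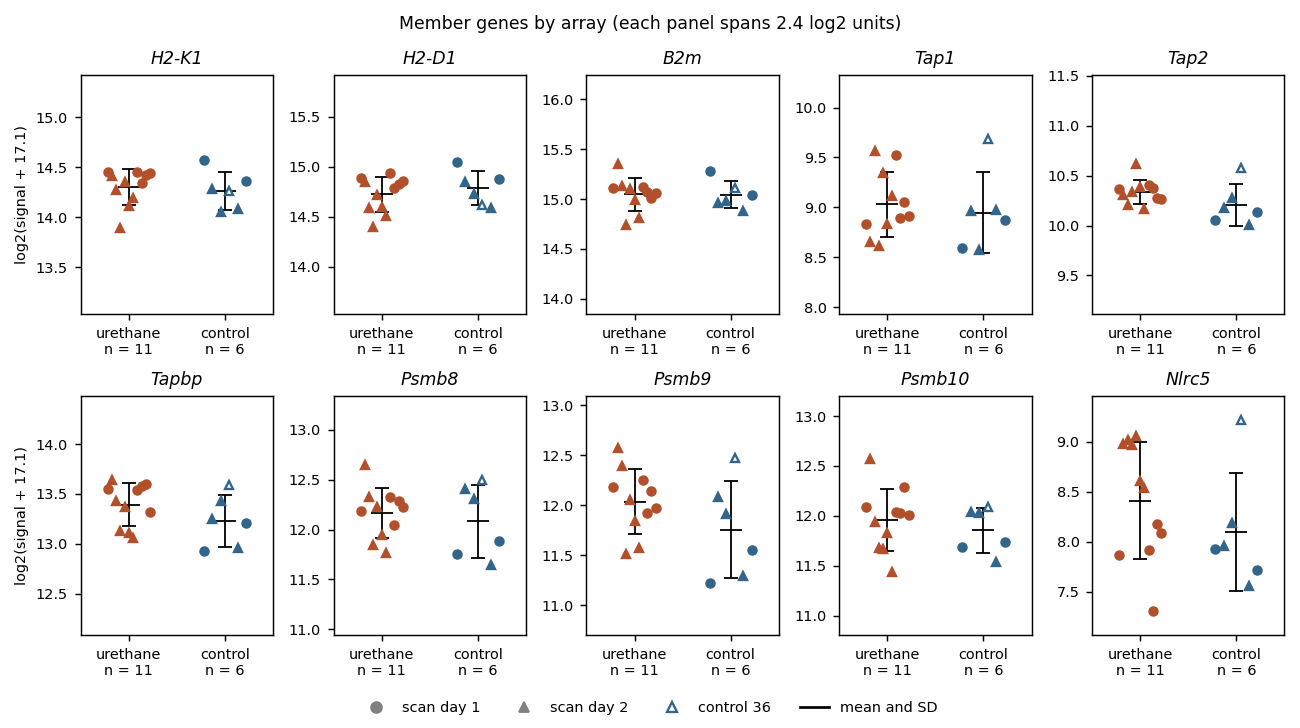
Log2(signal + 17.1) of the 10 class I presentation genes, with 11 urethane arrays left of 6 control arrays; circles are scan day 1, triangles scan day 2, the open triangle is control 36, and black bars are the mean and SD of each group. The 2 groups overlap in every panel, and control 36 is the highest control for Tap1, Tap2, Tapbp, Psmb8, Psmb9, Psmb10 and Nlrc5.

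By the probe sets that stood for them, the heavy chains and their light chain differed least. These probe sets lay above the 99.2 percentile of signal on every array. Whether so high a signal limits the differences was not tested. H2-K1, which presents peptides to CD8 T cells, was measured at log2 signals from 13.89 to 14.45 with a median of 14.35 in urethane arrays, and from 14.05 to 14.57 with a median of 14.27 in controls. Most urethane arrays lay in the upper part of the control range, and urethane 33 was the lowest of all arrays. The difference was 0.04 (SE 0.10, limma adjusted p = 0.922). H2-D1, the heavy chain of the D locus, ran from 14.40 to 14.93 (median 14.79) after urethane and from 14.59 to 15.05 (median 14.79) in controls. Control 14 was the highest array and urethane 33 again the lowest, and the difference was -0.06 (SE 0.10, adjusted p = 0.841). B2m ran from 14.74 to 15.35 (median 15.07) after urethane and from 14.89 to 15.28 (median 15.02) in controls. Its difference of 0.0019 (SE 0.09, adjusted p = 0.996) had a 95% interval from -0.19 to 0.19, and its other probe set gave -0.02.

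Probe sets of the same heavy chain did not move alike. Every H2-K1 probe set, and all tested H2-D1 probe sets but 1426324_at, carry the suffix _x_at, which marks probes that can match related transcripts, so signal of near-identical class I genes may be split among them. Probe set 1425336_x_at of H2-K1 ran from 12.18 to 13.02 (median 12.56) after urethane and from 11.59 to 12.95 (median 11.91) in controls. Probe set 1427746_x_at of H2-K1 ran from 11.38 to 12.72 (median 11.96) after urethane and from 10.77 to 12.56 (median 11.08) in controls. In both, each of the 11 urethane arrays exceeded the mean of the controls and control 36 was the highest control. The next controls reached 12.15 and 11.51. The differences were 0.48 (SE 0.16) and 0.69 (SE 0.22), with unadjusted p of 0.0055 and 0.0054 in limma and adjusted p of 0.151 and 0.150 over 29550 probe sets. The probe set that stood for H2-K1, 1451931_x_at, gave 0.04 on the same arrays.

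Both calls changed when control 36 was left out. It was the highest control of both probe sets, so leaving it out raises each difference. The p-values without it are therefore a description. Without it the differences were 0.67 for 1425336_x_at and 0.94 for 1427746_x_at, and both passed with adjusted p of 0.0035 and 0.0062, where 1.83% of all probe sets passed higher. With scan day as a block and control 36 kept, 1425336_x_at passed (adjusted p = 0.044) and 1427746_x_at did not (adjusted p = 0.067), where 2.7% of probe sets passed higher. The difference of 1425336_x_at was 0.68 in the arrays of scan day 1 and 0.42 in those of scan day 2, and that of 1427746_x_at was 1.01 and 0.53. Of the 24 member probe sets, 0 passed with all arrays and these 2 had an unadjusted p below 0.05, against 1.58% and 12.5% of all probe sets. Differences were above 0 for 20 of the 24, against 41.8% of all probe sets. The 8 tested probe sets of H2-D1 gave differences from -0.06 to 0.45, the highest being that of 1450170_x_at, which differed by -0.66 on scan day 1 and 1.199 on scan day 2.

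**Figure D2:**
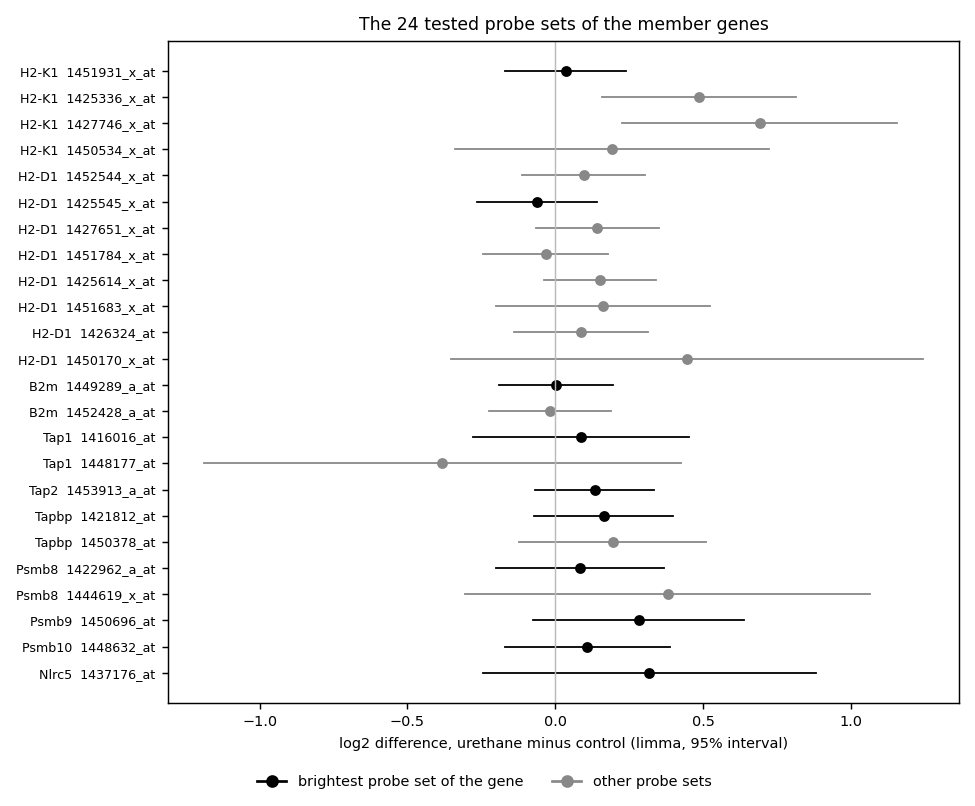
Log2 difference (urethane minus control) of the 24 tested probe sets with its 95% interval from limma over all probe sets; black marks the probe set that stands for its gene. The intervals of 1425336_x_at and 1427746_x_at of H2-K1 lie above 0, and every other interval includes 0.

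None of the loading genes passed. Tap1, one chain of the peptide transporter, ran from 8.61 to 9.57 (median 8.91) in urethane arrays and from 8.57 to 9.69 (median 8.92) in controls. Control 36 lay above all 11 urethane arrays, and the other controls reached at most 8.97. The difference was 0.09 (SE 0.17, adjusted p = 0.880) with control 36 and 0.24 (SE 0.16, adjusted p = 0.517) without it. Tap2, its partner chain, ran from 10.17 to 10.62 (median 10.34) after urethane and from 10.004 to 10.58 (median 10.16) in controls, and 9 of 11 urethane arrays exceeded the mean of the controls. Its difference was 0.13 (SE 0.09, adjusted p = 0.573), and 0.21 without control 36 (adjusted p = 0.234). Tapbp ran from 13.05 to 13.64 (median 13.43) after urethane and from 12.93 to 13.59 (median 13.23) in controls. Its difference was 0.16 (SE 0.11, adjusted p = 0.556), its other probe set gave 0.19, and without control 36 the gene differed by 0.24 (adjusted p = 0.296).

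The 3 immunoproteasome subunits were spread widely within each group. Psmb8, which takes the place of Psmb5, ran from 11.77 to 12.64 (median 12.22) after urethane and from 11.64 to 12.50 (median 12.10) in controls, a difference of 0.08 (SE 0.14, adjusted p = 0.851). Psmb9, which takes the place of Psmb6, ran from 11.51 to 12.58 (median 12.05) after urethane and from 11.22 to 12.47 (median 11.73) in controls. It exceeded the mean of the controls in 9 of 11 urethane arrays, with a difference of 0.28 (SE 0.17, adjusted p = 0.486). Psmb10, which takes the place of Psmb7, ran from 11.44 to 12.57 (median 12.01) after urethane and from 11.53 to 12.09 (median 11.89) in controls, a difference of 0.11 (SE 0.13, adjusted p = 0.790). Urethane 31 was the highest array for all 3 subunits and control 36 the highest control.

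The constitutive partners Psmb5, Psmb6 and Psmb7 also did not pass, at -0.04, 0.10 and 0.0055. Because the subunits replace these partners in the core particle, the log2 ratio of each pair was compared within arrays, the level of a ratio having no meaning across probe sets. The Psmb9 to Psmb6 ratio ran from -0.66 to -0.27 (median -0.43) in urethane arrays and from -0.99 to -0.12 (median -0.61) in controls. Control 36 lay above every urethane array and control 14, control 37 and control 6_13 below every one, so the control range enclosed the urethane range. The difference was 0.18 (exact permutation p = 0.137, two-sided, Benjamini-Hochberg p = 0.399 over 3 pairs). Without control 36 it was 0.28, with an exact permutation p of 0.0174 and a Benjamini-Hochberg p of 0.052. Leaving out the highest control raises the difference, so these p-values are a description. The Psmb8 to Psmb5 ratio differed by 0.12 (exact p = 0.266) and the Psmb10 to Psmb7 ratio by 0.10 (exact p = 0.399). On scan day 1 the Psmb9 and Psmb10 ratios of all 5 urethane arrays lay above both controls, with differences of 0.45 and 0.33, and 5 arrays against 2 cannot give an exact p below 0.0952. On scan day 2 the same ratios differed by 0.03 and -0.03.

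**Figure D3:**
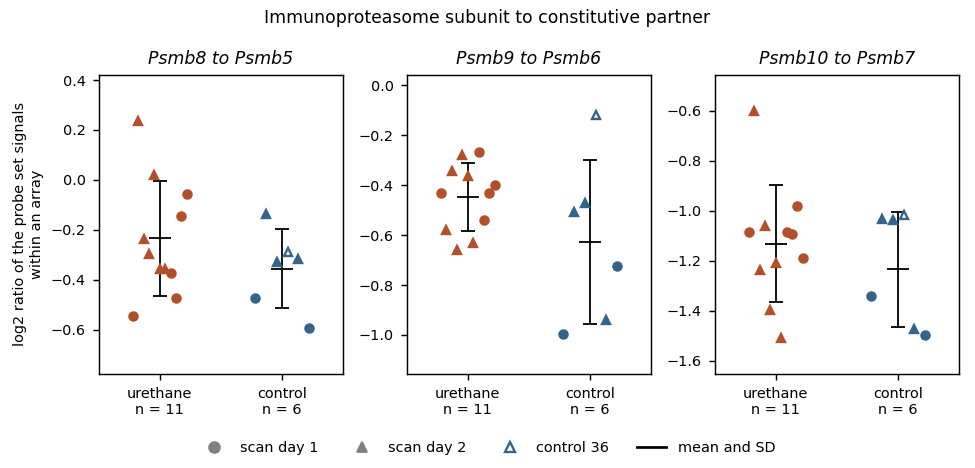
Within-array log2 ratio of each immunoproteasome subunit to the constitutive subunit it replaces, urethane (n = 11) left of control (n = 6); circles are scan day 1, triangles scan day 2, the open triangle is control 36, and bars are mean and SD. For Psmb9 to Psmb6 the controls run from -0.99 to -0.12 and enclose the urethane arrays.

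Nlrc5, the class I transactivator, had the largest difference and the widest spread of the 10 genes. It ran from 7.31 to 9.06 (median 8.53) after urethane and from 7.55 to 9.21 (median 7.94) in controls, a difference of 0.32 (SE 0.27, adjusted p = 0.655). Control 36 was the highest of all arrays, and the other controls reached at most 8.18. On scan day 2 all 6 urethane arrays lay between 8.53 and 9.06, above the controls of that day other than control 36. On scan day 1 the urethane arrays lay between 7.31 and 8.17, around controls of 7.72 and 7.93. The difference was 0.54 without control 36 (SE 0.26, unadjusted p = 0.0456, adjusted p = 0.286), and 0.41 with scan day as a block (adjusted p = 0.271).

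Scan days gave different sizes for these genes. With scan day as a block 0 of 10 genes passed, against 7.75% of all genes. On scan day 1 alone Tapbp, Psmb8, Psmb9 and Psmb10 were higher after urethane, with differences of 0.45, 0.39, 0.71 and 0.38 and limma adjusted p of 0.020, 0.034, 0.0036 and 0.040, where 4.92% of all genes passed higher and 2.35% lower. Psmb9 lay between 11.92 and 12.25 in the 5 urethane arrays of that day and at 11.22 and 11.55 in its 2 controls. Both of those controls and urethane 9 ran on fluidics station 2, while urethane 3, 5, 7 and 8 ran on station 1. With station as a block over all arrays Psmb8 differed by -0.08 and Psmb10 by -0.04, while Tapbp and Psmb9 stayed above 0. The part of station in the calls of scan day 1 was not tested. On scan day 2 alone 0 genes of the 10 passed, where 2.36% of all genes passed higher and 2.39% lower, and the same 4 genes differed by -0.02, -0.09, 0.05 and -0.07. Of the 10 genes, 5 had all urethane arrays of scan day 1 above both of its controls, as had 15.2% of all genes. On scan day 1 the members had a median difference of 0.28 and all genes one of -0.04, and on scan day 2 these medians were 0.0089 and 0.02. The difference between days was tested as an interaction, and 0 members passed, with adjusted p from 0.257 for Tapbp to 0.965 for H2-D1, against 0.0822% of all genes. The log2 of the 20th percentile signal, urethane minus control, was -0.85 for scan day 1 and 0.40 for scan day 2, and its part in these values was not tested.

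**Figure D4:**
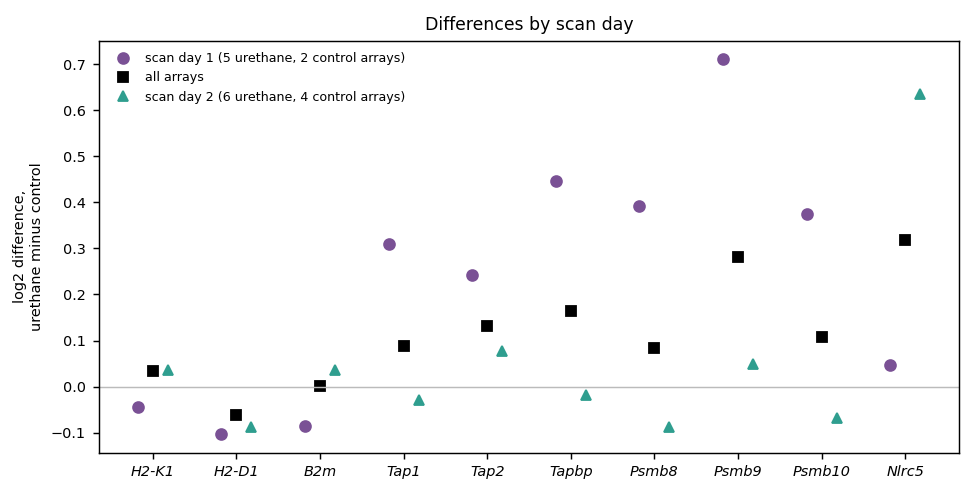
Log2 difference (urethane minus control) of each gene on scan day 1 (5 urethane and 2 control arrays), over all arrays, and on scan day 2 (6 urethane and 4 control arrays). Psmb9 is highest on scan day 1 at 0.71 and Nlrc5 on scan day 2 at 0.63, while H2-K1, H2-D1 and B2m lie between -0.10 and 0.04 on both days.

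Leaving out control 36 changed no call on any of the 10 genes. Control 36 was the highest of the 6 controls for 7 of the 10 genes, as it was for 15.7% of all genes. Without it 0 genes passed, against 4.73% of all genes, and Tap2, Tapbp, Psmb9 and Nlrc5 had an unadjusted p below 0.05, against 16.8% of all genes. The median difference of the members was then 0.19, beside -0.04 over all genes.

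Around these genes, a pair of aminopeptidases rose. Among 14 measured genes of peptide trimming and loading, 2 rose, 0 fell and 12 did not pass, where 2% of all genes rose. The list's median difference was 0.11. It was 0.25 in the scan day 1 arrays and -0.01 in those of scan day 2. Erap1, the aminopeptidase that trims peptides in the endoplasmic reticulum, ran from 10.29 to 10.67 (median 10.46) after urethane and from 9.89 to 10.33 (median 10.12) in controls. All but 1 of the 11 urethane arrays lay above the highest control, and the difference was 0.37 (SE 0.09, adjusted p = 0.0197). Lap3, a cytosolic leucine aminopeptidase, was 0.52 higher (SE 0.12, adjusted p = 0.0182). Tapbpl, a tapasin-related peptide editor, gave 0.39 (SE 0.11) and did not pass with all arrays (adjusted p = 0.053), and it passed without control 36 (0.43, adjusted p = 0.033). Erap1 and Lap3 differed by 0.27 and 0.65 on scan day 1 and by 0.42 and 0.42 on scan day 2.

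No other proteasome gene passed, where 3.14% of all genes did. Of the 3 constitutive catalytic subunits, 11 other 20S core subunits and 9 measured activators and assembly factors, 0 passed in either direction, with medians of 0.0055, 0.0008 and -0.07. Among 17 measured genes of interferon-gamma signalling and class I transcription 0 passed, the median was 0.07, and Irf1, a factor induced by interferon-gamma, differed by 0.12 (SE 0.15). Of the other class I heavy chains 3 were measured and 0 passed, with differences of -0.34 for H2-T24, -0.98 for H2-T3 and 0.13 for H2-M3. H2-M3 alone of them exceeded the 40th percentile signal on all arrays, and the median of the 3 was -1.17 in the scan day 1 arrays and -0.03 in those of scan day 2. Over all arrays the median of the 3 was -0.34, and that value ran from -0.61 to -0.18 when 1 array was left out. H2-M3 passed higher on scan day 1 alone (0.46, limma adjusted p = 0.024), where 4.92% of all genes did, and differed by -0.03 on scan day 2. The 5 class I-like partners of B2m also gave 0 calls, with a median of 0.25, or 0.63 in the scan day 1 arrays and -0.02 in those of scan day 2. Cd1d2, a lipid-presenting molecule of the CD1 family, differed most (0.88, SE 0.28, adjusted p = 0.105), and Mr1, which presents vitamin B metabolites, differed by 0.26. Cd1d2 passed without control 36 (1.09, adjusted p = 0.027) and with scan day as a block (0.93, adjusted p = 0.040), where the neonatal Fc receptor chain Fcgrt also passed, lower (-0.24, adjusted p = 0.033). However, Cd1d2 exceeded the 40th percentile signal on all 11 urethane arrays but on only 2 of 6 controls. It thus met the filter through the urethane group, and its values are a description. Cd1d1, above that percentile on all arrays, differed by 0.10 (limma adjusted p = 0.767). Among 28 other interferon-stimulated genes 3 rose, 0 fell and 25 did not pass, where 2% of all genes rose and 1.14% fell. The median of this list was 0.32. Those that rose were the guanylate-binding protein Gbp6 (1.26, SE 0.34), the immunity-related GTPase Ifi47 (0.68, SE 0.17) and Irf9 (0.55, SE 0.14), the DNA-binding part of the complex that type I interferon activates. Control 36 had the highest mean of this list among controls, 9.39, against 8.76 to 9.33 in urethane arrays and 8.37 in the lowest control. Without this highest control 11 of the 28 rose, against 3.26% of all genes, a count that is a description for the same reason. Of 10 measured MHC class II genes 0 rose and 1 fell, against 1.14% of all genes that fell. The gene that fell was H2-DMb2, a chain of the class II peptide editor (-0.63, SE 0.14). The class II list had a median of -0.28, or 0.03 in the scan day 1 arrays and -0.46 in those of scan day 2.

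Of the marker lists of other cell types, airway epithelium held the most calls. Beside the counts of each list, 2% of all genes rose and 1.14% fell. Of 15 measured T cell markers 2 rose, Cd3d (1.84, SE 0.48) and Il7r (1.67, SE 0.39). However, Cd3d exceeded the 40th percentile signal on all 11 urethane arrays but on only 1 of 6 controls. Cd3d thus met the filter through the urethane group, and its values are a description. Il7r was above that percentile on all arrays. The T cell list mean ran from 6.79 to 8.49 in urethane arrays and from 6.04 to 8.25 in controls. Control 36 had the highest T cell list mean among controls. The median difference of the T cell list was 0.09 in the scan day 1 arrays and 0.96 in those of scan day 2. Of 14 airway epithelial markers 6 fell and 0 rose, against 1.14% of all genes that fell, and the list mean ran from 8.79 to 9.54 after urethane and from 9.64 to 10.52 in controls. S100a8 rose (1.73, SE 0.44), alone among 9 measured neutrophil markers, whose list mean ran from 7.69 to 11.02 after urethane and from 7.72 to 8.99 in controls. The 11.02 is that of urethane 34, and the next urethane array was at 8.96. The 15 alveolar macrophage markers held 2 that rose and 2 that fell, with list means from 13.36 to 14.04 after urethane and from 13.73 to 13.97 in controls. Among 9 measured dendritic cell and monocyte markers 2 fell, Cd83 (-0.73, SE 0.15) and Cx3cr1 (-1.57, SE 0.40), while 6 differences were above 0 and the median was 0.34. Cd83 and Cx3cr1 differed by -0.09 and -0.24 on scan day 1 and by -1.09 and -2.39 on scan day 2. Without control 36 the list held 1 marker that rose and 2 that fell, where 4.73% of all genes passed. Of the lymphocyte markers, 0 of 9 measured cytotoxic lymphocyte and 0 of 7 measured B cell markers passed. Some of these markers are dim, though 0 of the deposited values equal 0: 2 of the 15 T cell markers and 0 of the 9 cytotoxic lymphocyte markers exceeded the 40th percentile signal on all arrays. Lymphocytes, neutrophils and epithelium also express class I genes, and their part in the values above was not tested.

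Within groups, some of the 10 genes varied together from array to array. Values were first centred on the mean of each group and scan day, and Pearson's r was taken over the 17 arrays as a description, since genes of an array share its RNA and scaling. Psmb8 and Psmb9, which flank Tap1 on chromosome 17, had an r of 0.95, Tapbp and Psmb9 one of 0.89, and H2-K1 and B2m one of 0.81. The median over the 45 pairs was 0.55, and 12 pairs were above 0.7. Pairs of other genes were not computed. Over all genes the median r with the mean of the members was -0.08. Tap1 varied apart from the rest, with r from -0.12 with Psmb10 to 0.43 with Nlrc5, although it lies beside Psmb9. Outside the 10, the genes most like their mean in this measure were Tmem256 (r = 0.96), F7 (0.95), Dap (0.94), Ypel5 (0.94) and Bag1 (0.93), among 13380 genes, and 0 of these 5 passed between the groups. Without control 36 those values ran from 0.92 to 0.96. On scan day 1, which holds 7 arrays, they ran from 0.38 for Bag1 to 0.91 for F7.

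**Figure D5:**
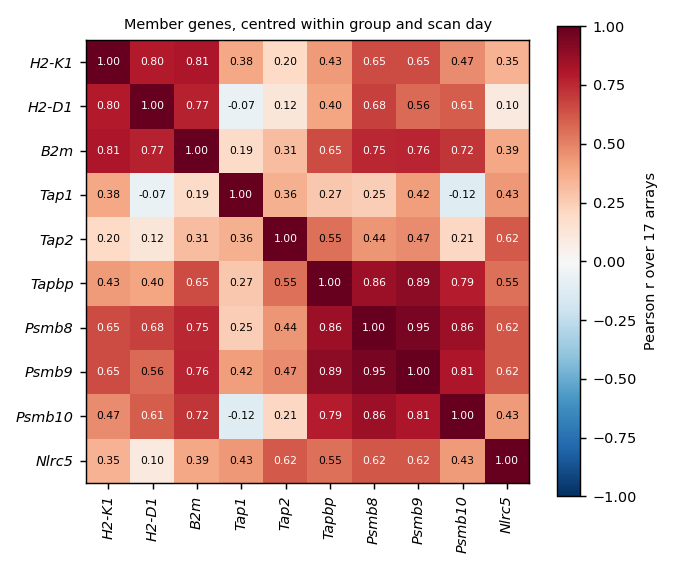
Pearson's r between the 10 genes over 17 arrays, after centring on the mean of each group and scan day. Tapbp, Psmb8, Psmb9 and Psmb10 form a block of high r, up to 0.95 for Psmb8 with Psmb9, whereas Tap1 has low r with every other gene, 0.43 at most.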

How the data were processed

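The authors deposited 1 linear intensity per probe set and array, made with MAS5, per the submitters' processing notes; its version is not given in the sources used here. The scan files were used only for scan day, chip lot and station. The authors' scaling was kept. Of 45101 probe sets, 29550 exceeded the 40th percentile of their array on at least 6 arrays, and 24468 of those had 1 gene symbol, giving 13390 genes by the probe set of highest mean. Values were log2(signal + 17.1), the pseudocount being the median 20th percentile signal, which understates folds of dim genes. The comparisons used limma 3.58.1 under R 4.3.3 (eBayes with a trend), two-sided, without covariates. Subunit ratios were tested by exact permutation over arrays (scipy 1.17.1 in Python 3.11.15), and figures were drawn with matplotlib 3.10.9. On simulated data over 13390 genes the test recovered 32% of genes changed 1.5-fold and 59% changed 2-fold. Every member was named, and from each pathway list up to 3 passing rises and up to 3 passing falls. Of the marker lists, the passing genes of airway epithelium and of alveolar macrophages were counted and not named. List genes that were not measured are not analysed here. The members and lists were chosen with earlier results of these data known. Mr1, Cd1d1, Cd1d2, Cd2, Fcgrt, H2-T24, H2-T3, H2-M3, Irf1 and Tapbpl were named after their values were seen. The results were recomputed under 36 other settings, 17 of which left out 1 array and 3 of which were added after seeing the data.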

Additional observations from a re-analysis of the deposited data

Results flagged for a closer look

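Tap1 in control 36 stood apart within its group: its log2 signal was 9.69, and the nearest other control was at 8.97. That gap is 0.642 of the whole control range, above Dixon's 95% critical value of 0.625 for 6 samples. The controls were examined in this way for the 10 genes and the 3 subunit ratios, 13 sets of values, of which 1 met the criterion, and chance alone gives about 1 in 20. The 11 urethane arrays were too many for this criterion. The Tap1 difference, urethane minus control, was 0.09 with control 36 and 0.24 without it, and neither passed.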

How the results depend on the processing

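The results were recomputed under 36 other settings. Member genes past the threshold stayed at 0 except on scan day 1 alone (4), with RNA quality ratios as covariates (1, Psmb9, adjusted p = 0.0435) and under the replicate block (3). Member probe sets past it were 1 with scan day as a block, 2 with that block and control 36 left out, 6 on scan day 1 alone, 3 with RNA quality ratios and 0 to 2 when 1 array was left out. All genes past it, 421 in the analysis reported, were 183 under equal median scaling, 205 with the probe set of largest variance, 250 without a variance trend, 1038 under the scan day block, 974 on scan day 1, 636 on scan day 2, 872 with the 20th percentile signal as a covariate, 1199 with the scan day block and control 36 left out, and 218 to 634 when 1 array was left out (220 without control 33, 218 without control 35, 634 without control 36). Pathway list genes past it, 6 as reported, were 3, 2, 14, 16, 3, 13 and 19 under equal median scaling, largest variance, the scan day block, scan day 1, scan day 2, the 20th percentile covariate and the scan day block with control 36 left out, 3 without urethane 33, 35 and 36, and 2 to 16 when 1 array was left out. Marker genes past it, 15 as reported, were 8 under equal median scaling, 6 without a trend, 9 with robust variances, 9 with RNA quality ratios, 26 with the scan day block and control 36 left out, 8 without urethane 33, 35 and 36, 7 with fluidics station as a block, and 7 to 18 when 1 array was left out.

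Signs of small differences turned. H2-D1 was 0.085 under quantile normalization, 0.16 under equal median scaling, 0.12 as the mean of its probe sets, 0.45 with the probe set of largest variance, 0.023 with RNA quality ratios and 0.021 without urethane 33, 35 and 36. B2m was -0.0085 as the mean of probe sets, -0.019 with largest variance, -0.0097 with the scan day block, -0.086 on scan day 1, -0.017 with the 20th percentile covariate and -0.034 with the fluidics block. Tap1 was -0.15 and -0.38 with the mean and the largest variance, and -0.028 on scan day 2. H2-K1 was -0.044 on scan day 1. On scan day 2 Tapbp was -0.018, Psmb8 -0.088, Psmb10 -0.069 and the Psmb10 to Psmb7 ratio -0.028. With the fluidics block Psmb8 was -0.081 and Psmb10 -0.038. Leaving out 1 array gave -0.030 to 0.049 for B2m, -0.0085 to 0.095 for H2-K1 and -0.0057 to 0.17 for Psmb8. The cause was not tested. Equal median scaling moved the median of all genes from -0.03 to 0.18 and that of the members to 0.31.

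The label numbers 33, 35 and 36 occur in both groups. Deviations of same-numbered arrays correlated at -0.04, -0.18 and -0.13, which shows no pairing but cannot exclude one. The main test did not use these numbers. The replicate block on them rests on few shared arrays and gave 3024 genes, 3 member genes, 6 member probe sets, 29 pathway and 23 marker genes, with H2-K1 at -0.13, B2m -0.17, Tap1 -0.22, Tap2 -0.048, Tapbp -0.32, Psmb8 -0.55, Psmb9 -0.52 and Psmb10 -0.40. The number of arrays, 2 controls on scan day 1 above all, limits the precision, and the interval of Nlrc5 allows up to 1.84-fold.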

Other observations

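The 3 probe sets of the members that were too dim to test were 1420274_at and 1449803_x_at of Tap1 and 1451934_at of H2-D1. They exceeded the 40th percentile signal on 5, 4 and 2 of the 17 arrays and differed by 0.20, 0.26 and 0.23, urethane minus control. The second Tap1 probe set that was tested, 1448177_at, exceeded it on 7 arrays and gave -0.38 (SE 0.39), opposite in sign to 0.09 for 1416016_at, which exceeded it on all 17.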
